A study of Mus musculus with 4 samples.

Results

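Fgf1, the gene of an acidic fibroblast growth factor, was examined with 7 genes of the same signalling system in sorted mouse mammary basal cells: the ligand genes Fgf2 and Fgf7, the receptor genes Fgfr1, Fgfr2 and Fgfr3, the carrier gene Fgfbp1 and the adaptor gene Frs2. All 8 genes had a row among the 34615 genes counted by RNA sequencing. Fgf1 was picked because its level in both libraries of one genotype lay above both of the other, so its difference is given as a description without a test. The other 7 were taken as its family, receptors and relay. In mouse Ensembl identifiers, Fgf1 is ENSMUSG00000036585 on chromosome 18, Fgf2 is ENSMUSG00000037225 on chromosome 3 and Fgf7 is ENSMUSG00000027208 on chromosome 2. Fgfbp1 is ENSMUSG00000048373 and Fgfr3 is ENSMUSG00000054252, both on chromosome 5. Fgfr1 is ENSMUSG00000031565 on chromosome 8, Fgfr2 is ENSMUSG00000030849 on chromosome 7 and Frs2 is ENSMUSG00000020170 on chromosome 10.

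The 2 KO libraries came from mammary cells of miR-205fl/fl;RosamTmG/mTmG genotype and the 2 WT libraries from WT;RosamTmG/mTmG cells. Cells of both genotypes were treated with Ad-cre, an adenovirus carrying Cre recombinase, which deletes floxed miR-205 alleles and turns the membrane reporter from red to green, and both were grafted into SCID-Beige mice aged 3 weeks. Outgrowths were taken after 8 weeks, pooled (40), and sorted for GFP+ basal cells (CD24+CD49fhigh). The comparison addressed which genes differ in basal cells without the microRNA miR-205, and the labels do not say whether libraries of the same genotype had separate pools, so the p-values reflect library-to-library spread alone, possibly technical.

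Fibroblast growth factors are secreted proteins that bind receptor tyrosine kinases together with heparan sulfate, and the activated receptor phosphorylates the docking protein FRS2, which feeds the RAS-ERK and PI3K pathways. Sprouty and DUSP proteins damp that signal. In the mammary gland, FGF7 and FGF10 are known mainly as stromal ligands, and FGFR2 and FGFR1 are known for roles in branching and in maintaining epithelial cells. FGF1 can bind all FGF receptors, whereas FGF7 binds the IIIb splice form of FGFR2. Counts per gene merge splice forms, so the IIIb and IIIc forms could not be told apart.

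Because miR-205 is the gene targeted in KO, its mature strand and 1 of the 2 member sequences that match its seed, that of Fgf7, are shown first. The mature sequence is from RefSeq (GRCm38.p6, chr1:193507503-193507524, minus strand) and has its seed, bases 2 to 8, in capitals. The second line is the Fgf7 site in the 3' UTR (GRCm38, chr2:126091035-126091041, plus strand), with the capitals marking the bases complementary to that seed.
mmu-miR-205-5p: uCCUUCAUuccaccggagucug
Fgf7 3' UTR site: tatgaataagtacttATGAAGGg

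Of the 8 genes, 2 carried a match to the seed (ATGAAGG, searched on the transcript strand only) in their longest annotated 3' UTR. Fgf1 had 1 match in 3254 bases and Fgf7 had 1 match in 1624 bases, and neither was the longer match with a following A (ATGAAGGA). Among UTRs whose length was within a ratio of 0.8 either way, 25.0% held the match at the length of Fgf1 and 12.6% at the length of Fgf7, and over all 18184 genes with an annotated UTR the share was 11.2%. Fgf2, Frs2, Fgfr1, Fgfr2, Fgfr3 and Fgfbp1 had none. A match is a description of the sequence and not a measured site of binding.

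Gene counts per library were 60030932 and 47953972 in KO and 53067076 and 57650462 in WT. Fewer genes were detected in the second KO library: 18897 and 12679 genes were detected in KO, and 18139 and 18027 in WT. Of the 15364 genes tested, 0.42% and 22.2% were at 0 in KO, and 1.31% and 1.13% in WT. Mir205 itself had 0 counts in each of the 4 libraries, which allows up to 3 counts in each, or 0.04771 to 0.07187 counts per 1000000 gene counts (CPM), so it gave no check of the labels. Of 8 basal markers with a row, none was at 0, and their summed level was 11790 and 9809 CPM in KO and 9584 and 9250 CPM in WT. Summed fibroblast markers reached 614.5 and 888.1 CPM in KO and 535.4 and 590.8 CPM in WT, with none of 7 at 0. Summed luminal markers reached 597.4 and 954.8 CPM in KO and 509.7 and 915.2 CPM in WT. Of 7 with a row, 2 had both KO libraries below both WT libraries, as did 19.2% of all genes tested, and 0 had both above. Elf5 had 1.495 and 0 CPM in KO and 3.051 and 4.788 CPM in WT. Kit had 6.902 and 1.437 CPM in KO and 15.61 and 27.59 CPM in WT. Summed immune markers reached 96.42 and 315.6 CPM in KO and 64.76 and 148.1 CPM in WT. Most of that was Cd74, at 71.9 and 289.1 CPM in KO and 56.1 and 136.4 CPM in WT. Ptprc was at 2.688 and 25.01 CPM in KO and 3.317 and 3.327 CPM in WT. Lyz2 and Csf1r were lowest in KO replicate 2. Lyz2 had 20.04 and 1.366 CPM in KO and 3.494 and 4.436 CPM in WT. Csf1r had 1.797 and 0.1677 CPM in KO and 1.845 and 3.915 CPM in WT. Endothelial markers summed to 112.5 and 56.76 CPM in KO and 67.55 and 132.9 CPM in WT. Adipocyte markers summed to 41.14 and 150.7 CPM in KO and 25.88 and 40.84 CPM in WT. Most of that was Fabp4, at 32.22 and 138.7 CPM in KO and 14.78 and 28.29 CPM in WT. Adipoq and Plin1 were at 0 in both KO libraries and in 1 WT library each. All CPM values are scaled by TMM, a factor that evens out composition between libraries, unless stated.

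Fgf1 was the most abundant ligand gene and stood higher in both KO libraries. It had 215.5 and 213.6 CPM in KO and 130.7 and 128.0 CPM in WT, from 13549 and 8914 counts in KO and 7371 and 7621 counts in WT. The genotypes did not overlap, which is the pattern it was picked for, and the lowest KO value was 213.6 CPM against a highest WT value of 130.7 CPM. The means were 214.5 ± 1.35 CPM in KO and 129.4 ± 1.91 CPM in WT (SD, n = 2 each), and the fitted log2 fold change of KO over WT was 0.73 ± 0.21 (SE).

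The close match of the KO libraries depended on the scaling. With CPM per total gene count, Fgf1 had 225.7 and 185.9 CPM in KO and 138.9 and 132.2 CPM in WT, so the SD in KO was 28.2 CPM. The genotypes still did not overlap. Without KO replicate 2 the log2 fold change was 0.74 ± 0.17, and without KO replicate 1 it was 0.72 ± 0.18.

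The 2 KO libraries differed in how far other genes of like abundance scattered. The middle 90% of 2138 tested genes within 2-fold of the WT level of Fgf1 spanned log2 differences from the WT mean of -0.41 to 0.37 in the first KO library and -1.24 to 1.24 in the second. These ranges describe the spread of the libraries. They are no test of Fgf1, whose differences, 0.73 and 0.72, are the values it was picked on.

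**Figure D1:**
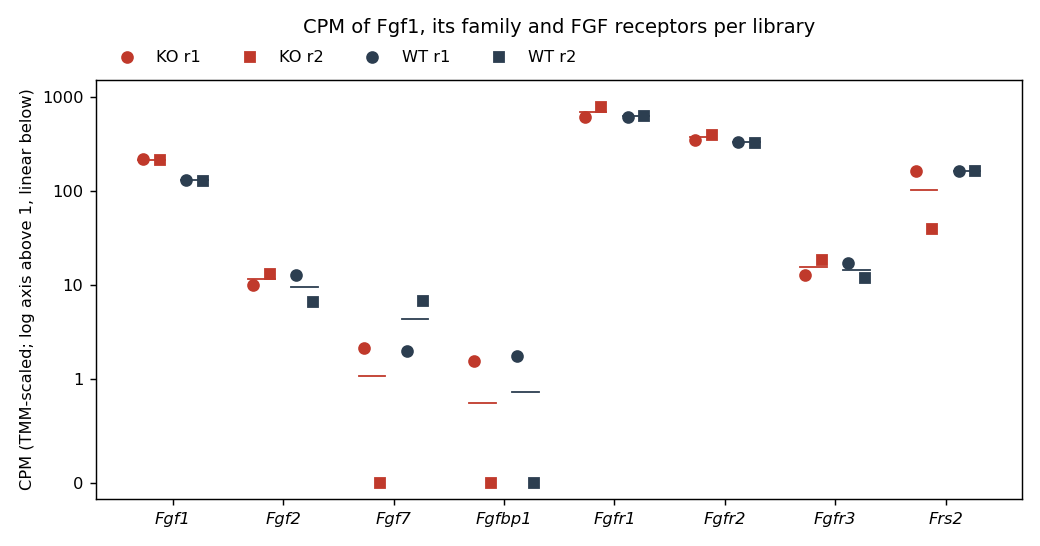
CPM (TMM-scaled, log axis above 1) of the 8 genes in each library, with circles for replicate 1, squares for replicate 2 and short lines for the mean of 2 libraries. Fgf1 lies at 215.5 and 213.6 CPM in KO above 130.7 and 128.0 CPM in WT, while Frs2 is low in KO replicate 2 alone.

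Fgf2 and Fgf7, the ligand genes examined with Fgf1, were at low levels and did not part the genotypes. Fgf2, basic fibroblast growth factor, had 9.955 and 13.08 CPM in KO and 12.58 and 6.502 CPM in WT. The libraries overlapped, and the log2 fold change of 0.27 ± 0.77 did not pass (edgeR quasi-likelihood test, adjusted p of 0.9989), and it was 0.06 ± 0.56 without KO replicate 2. Of its exon bases, 13.2% are shared with exons of other genes, mainly Nudt6 on the opposite strand, and the strand setting of the counting is not given in the sources used here.

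Fgf7, known as a ligand made by stromal cells, had 134 and 0 counts in KO and 112 and 402 counts in WT, which is 2.131 and 0 CPM in KO and 1.987 and 6.754 CPM in WT. Only KO replicate 2 lacked it, and KO replicate 1 lay between the WT libraries. The log2 fold change was -2.03 ± 2.44 (adjusted p of 0.9989 by edgeR) and -1.03 ± 0.96 without KO replicate 2. Of 3154 tested genes within 2-fold of its WT level, 0.03% and 24.13% were at 0 in the 2 KO libraries. In bulk samples, fewer cells of a type and less RNA per cell cannot be told apart. The 7 fibroblast markers with a row were all detected and did not move together. Dcn was at 153.2 and 221.2 CPM in KO and 89.45 and 105.5 CPM in WT. Fbln1 was at 10.78 and 102.6 CPM in KO and 10.11 and 7.695 CPM in WT. These 2 had both KO libraries above both WT libraries, as did 13.2% of all genes tested, and 0 had both below. Col1a2 was at 20.94 and 30.93 CPM in KO and 28.89 and 29.35 CPM in WT. Lum was at 3.515 and 1.006 CPM in KO and 0.9933 and 1.596 CPM in WT. Col3a1 was at 19.24 and 21.18 CPM in KO and 10.66 and 30.24 CPM in WT. The part of these markers in the level of Fgf7 was not tested.

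Fgfbp1, a secreted protein that releases bound FGFs from the matrix, was low and was not detected in every library. It had 97 and 0 counts in KO and 99 and 0 counts in WT. One library of each genotype held all of its reads, and its log2 fold change was -0.18 ± 3.21 (adjusted p of 0.9989 by edgeR) and 0.82 ± 2.19 without KO replicate 2.

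Fgfr1 and Fgfr2 were abundant and close in level across libraries, whereas Fgfr3 was low. Fgfr1 had 607.3 and 780.9 CPM in KO and 606.9 and 629.7 CPM in WT. KO replicate 1 lay between the WT libraries and KO replicate 2 above both, with a log2 fold change of 0.17 ± 0.21 (adjusted p of 0.9989 by edgeR) and -0.02 ± 0.13 without KO replicate 2.

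Fgfr2 had 341.8 and 395.1 CPM in KO and 327.8 and 323.4 CPM in WT. Both KO libraries lay above both WT libraries under this scaling, but with CPM per total gene count the values were 358.0 and 343.9 CPM in KO and 348.3 and 333.9 CPM in WT, which overlap. The log2 fold change was 0.18 ± 0.19 (adjusted p of 0.9989 by edgeR) and 0.07 ± 0.15 without KO replicate 2.

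Fgfr3 was much lower, with 12.71 and 18.28 CPM in KO and 16.92 and 11.83 CPM in WT. The genotypes overlapped and the log2 fold change was 0.11 ± 0.63 (adjusted p of 0.9989 by edgeR) and -0.17 ± 0.46 without KO replicate 2. Of its exon bases, 13.9% are shared with a gene annotated on the opposite strand, against 1.7% for Fgfr1 and 3.0% for Fgfr2.

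Frs2, which encodes the docking protein that couples FGF receptors to ERK signalling, differed widely between the KO libraries. It had 163.2 and 39.48 CPM in KO, against 162.2 and 161.6 CPM in WT. The other 3 libraries lay close together. The log2 fold change of -0.68 ± 0.66 did not pass (adjusted p of 0.9989 by edgeR), and it was 0.01 ± 0.18 without KO replicate 2 and -2.04 ± 0.22 without KO replicate 1. In KO replicate 2 the difference from the WT mean was -2.02, below the middle 90% of 1894 tested genes within 2-fold of its WT level, which spanned -1.13 to 1.20. None of those genes had a count of 0 there. Frs2 had 1648 counts in that library, far above the floor of 3, and the cause of the low value was not tested.

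**Figure D2:**
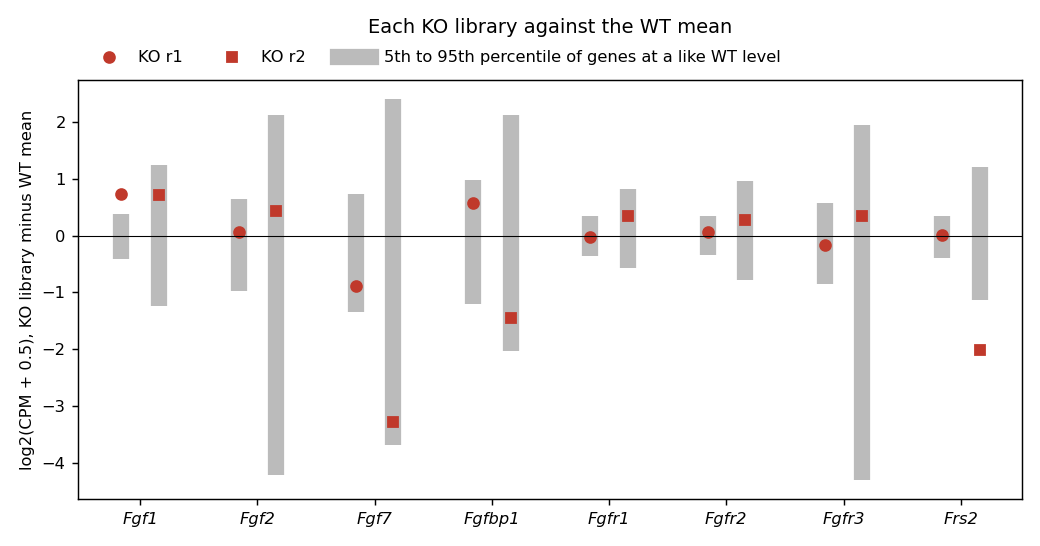
Difference of each KO library from the WT mean on the log2(CPM + 0.5) scale, as circles for KO replicate 1 and squares for KO replicate 2, with grey bars for the 5th to 95th percentile of tested genes within 2-fold of the same WT level. Fgf1 stands at 0.73 and 0.72, Frs2 at 0.01 and -2.02, and the grey bars are longer in KO replicate 2 for every gene shown.

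Of the 7 genes other than Fgf1, 0 were called higher or lower in KO by the edgeR quasi-likelihood test at a Benjamini-Hochberg adjusted p under 0.05, as were 0% of the 15364 genes tested. None of the 7 had an unadjusted p under 0.05, and their p-values ran from 0.3556 for Frs2 to 0.9568 for Fgfbp1. Over all genes 147 (0.957%) had an unadjusted p under 0.05. Neither DESeq2 nor limma voom called any of the 7, while over all genes DESeq2 called 11 and limma voom 0. Of the 7, only Fgfr2 had libraries that did not overlap between the genotypes, against 32.4% of all genes tested. Fgfr2 had both KO libraries above both WT libraries, as did 13.2% of all genes. None of the 7 had both below, as did 19.2%. Fgf1 is left out of these counts because it was picked for this pattern. Without KO replicate 1, Fgf7 and Frs2 were called lower in KO (adjusted p of 0.008142 and 0.002621 by edgeR), as were 22.5% of the genes then tested, and of the 7 none was called higher, against 12.4%.

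Levels between genes were compared as CPM per kilobase of annotated exon. In descending order of the mean over the 4 libraries they were Fgfr1 (66.4 ± 8.49), Fgfr2 (33.6 ± 3.19), Fgf1 (31.5 ± 9.0), Frs2 (from 4.51 in KO replicate 2 to 18.7 in KO replicate 1), Fgfr3 (2.09 ± 0.44), Fgf2 (1.55 ± 0.444), Fgf7 (0.837 ± 0.881) and Fgfbp1 (0.364 ± 0.423), in CPM per kilobase (mean ± SD, n = 4, except for Frs2). Fgfr1 lay above Fgfr2 in each library without overlap of their ranges, and so did Fgf1 above Frs2 and Frs2 above Fgfr3. Fgfr2 and Fgf1 overlapped: Fgf1 was the higher in both KO libraries, at 39.4 and 39.1 against 33.1 and 38.3 for Fgfr2, and the lower in both WT libraries, at 23.9 and 23.4 against 31.7 and 31.3 CPM per kilobase. That exchange depended on gene length, because per kilobase of the longest transcript Fgf1 was at 0.701 and 0.601 of Fgfr2 in KO and at 0.443 and 0.44 in WT. The ranges of Fgfr3 and Fgf2, of Fgf2 and Fgf7, and of Fgf7 and Fgfbp1 also overlapped.

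Within the receptor family the proportions differed little between libraries. Fgfr1 made up 63.0% and 66.0% of the summed level per kilobase of the 4 receptor genes in KO and 63.5% and 65.2% in WT, and Fgfr2 made up 33.9% and 31.9% in KO and 32.8% and 32.0% in WT. The ratio of Fgfr1 to Fgfr2 was 1.86 and 2.07 in KO and 1.94 and 2.04 in WT. The genotypes overlapped in each of these values, and with 2 libraries each an exact permutation test cannot go below 0.333. Among 20 ligand genes with a row, Fgf1 made up 88.8% and 92.3% of the summed level in KO and 76.8% and 84.6% in WT, a description that includes the difference it was picked for. The zeros of other ligand genes also enter these shares. Of the 20 genes, 9 and 17 were at 0 in KO and 9 and 10 in WT.

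**Figure D3:**
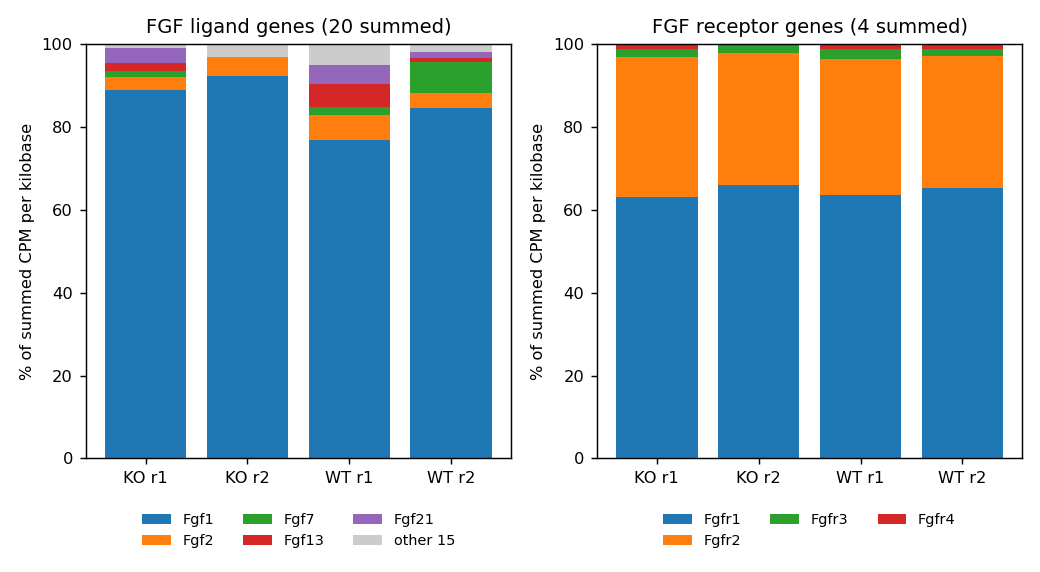
Share of the summed CPM per kilobase held by each gene, in percent, among 20 FGF ligand genes (left) and 4 FGF receptor genes (right), 1 bar per library. Fgf1 holds 76.8% to 92.3% of the ligand level, and Fgfr1 with Fgfr2 holds nearly all of the receptor level in each library.

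The remaining ligand genes were at 0 or at low levels. Fgf10, known as a stromal ligand of the mammary gland, had 0 counts in all 4 libraries, as did Fgf4, Fgf6, Fgf12 and Fgf20. Of the 20 ligand genes 8 were tested, and 0 were called higher and 0 lower (edgeR; Fgf1 set aside, 1 gene, Fgf15, had an unadjusted p under 0.05). Their median log2 fold change was -0.79, also with Fgf15 at its lower bound, against -0.14 over all genes tested. That median rested on single libraries: it was -0.14 without KO replicate 2, -8.22 without KO replicate 1 and 0.78 without WT replicate 1, and 0.45 for the 2 genes with a mean CPM of 5 or more. Fgf15, an endocrine ligand of the intestine, had 22 and 169 counts in KO and 0 and 0 in WT, so it was at least 42.5-fold higher in KO against a floor of 3 counts per WT library. KO replicate 2 carried most of that bound, which was 6.75-fold for KO replicate 1 and 78.2-fold for KO replicate 2, at 0.3499 and 4.049 CPM.

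Fgf21, an endocrine ligand, had 1.527 and 0 CPM in KO and 1.384 and 0.42 CPM in WT. Fgf13, an intracellular member that does not act through these receptors, had 3.165 and 0 CPM in KO and 6.918 and 1.142 CPM in WT. Fgf5 had 0.3658 and 0 CPM in KO and 2.004 and 0.06721 CPM in WT. All 3 genes were at 0 in KO replicate 2, while KO replicate 1 lay between the WT libraries for Fgf13 and Fgf5 and above both for Fgf21.

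Of 7 receptor and co-receptor genes tested, 0 were called in either direction (edgeR, 0 with an unadjusted p under 0.05). Their fold changes were positive for 4 and negative for 3, against 42.8% positive over all genes tested. The median was 0.11, or -0.02 without KO replicate 2. Fgfrl1, a receptor-like protein without the kinase domain, had 26.92 and 11.62 CPM in KO and 34.34 and 31.02 CPM in WT, with both KO libraries below both WT libraries and a log2 fold change of -0.76 ± 0.58. Its difference from the WT mean was -0.27 in KO replicate 1 and -1.45 in KO replicate 2. Fgfr4 had 4.342 and 0 CPM in KO and 4.399 and 3.948 CPM in WT. The co-receptor genes Klb and Kl, needed by the endocrine FGFs, were at or under 1.509 CPM in each library.

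Heparan sulfate, which FGFs need to engage their receptors, is carried by syndecans, glypicans and perlecan, and these were listed with its enzymes and with FGF-binding and FLRT proteins, at levels that ranged widely. Of 26 genes tested, 0 were called in either direction (edgeR; 0 with an unadjusted p under 0.05), 11 fold changes were positive and 15 negative, and the median was -0.11, or 0.01 without KO replicate 2. Sdc4, a syndecan that carries heparan sulfate at the cell surface, had 2306 and 2076 CPM in KO and 2178 and 2269 CPM in WT (log2 fold change -0.02 ± 0.17). Sdc1, another syndecan, had 400.7 and 426.8 CPM in KO and 375.7 and 412.4 CPM in WT. Both overlapped between genotypes. Gpc6, a glypican, had 453.9 and 239.9 CPM in KO and 393.1 and 548.9 CPM in WT. Hspg2, which encodes the basement membrane carrier perlecan, had 825.6 and 814.7 CPM in KO and 649.2 and 730.1 CPM in WT (log2 fold change 0.25 ± 0.18, not past the threshold).

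In the intracellular relay, 0 of 21 tested genes were called in either direction (edgeR; 1, Cblb, had an unadjusted p under 0.05), with 10 positive and 11 negative fold changes and a median of -0.01, or -0.06 without KO replicate 2. Nras, a RAS GTPase, had 274.1 and 290.7 CPM in KO and 303.8 and 263.9 CPM in WT. Map2k1, the ERK kinase MEK1, had 92.19 and 271.1 CPM in KO and 80.67 and 70.97 CPM in WT, so KO replicate 1 lay slightly above both WT libraries and KO replicate 2 far above them. Gab1, a docking protein that binds the FRS2 complex through GRB2, had 151.2 and 182.6 CPM in KO and 146.0 and 160.3 CPM in WT, which overlap. Cblb, a ubiquitin ligase of receptor signalling, had 213.0 and 153.0 CPM in KO and 281.6 and 296.5 CPM in WT.

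Among feedback inhibitors and transcriptional targets of ERK signalling, 0 of 15 tested genes were called (edgeR, 0 with an unadjusted p under 0.05). Their fold changes were positive for 10 and negative for 5, against 42.8% positive over all genes tested. The median was 0.04, or -0.0 without KO replicate 2. Dusp6, the ERK phosphatase, had 412.0 and 543.0 CPM in KO and 324.4 and 358.5 CPM in WT. Both KO libraries lay above both WT libraries, and the log2 fold change of 0.48 ± 0.22 did not pass (adjusted p of 0.9989 by edgeR). Egr1, an immediate early transcription factor, had 1291 and 1491 CPM in KO and 1131 and 1181 CPM in WT (log2 fold change 0.27 ± 0.18). Myc had 784.5 and 975.4 CPM in KO and 751.4 and 825.2 CPM in WT, and the genotypes overlapped. Spry2, a Sprouty inhibitor, had 100.7 and 105.9 CPM in KO and 118.5 and 120.4 CPM in WT, with both KO libraries below both WT libraries (log2 fold change -0.21 ± 0.24). Fosl1, an AP-1 subunit, had 162.4 and 34.31 CPM in KO and 103.9 and 133.6 CPM in WT. Its KO libraries lay on either side of WT.

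**Figure D4:**
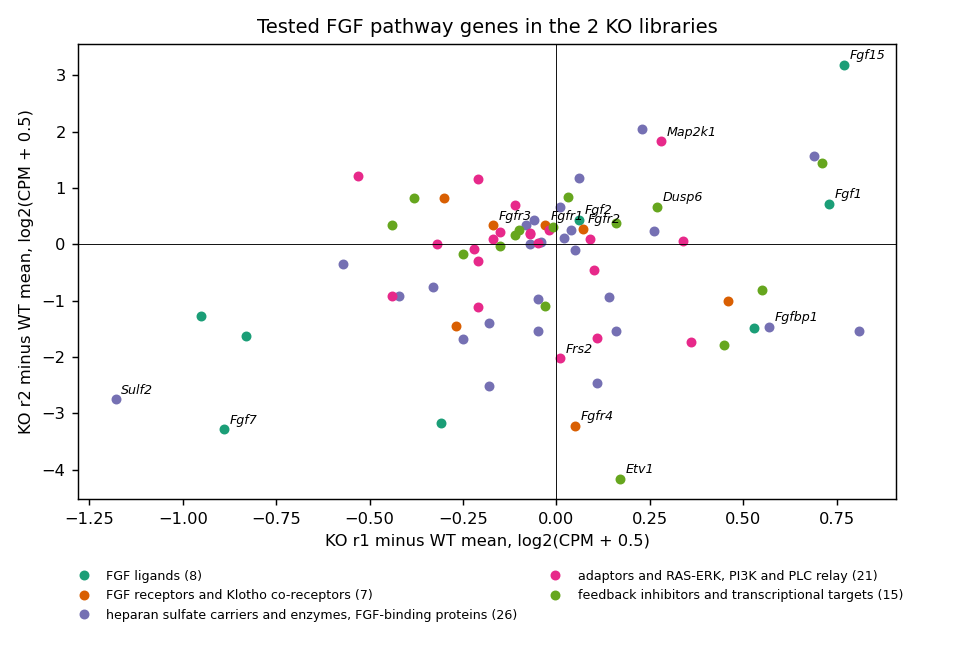
Each tested gene of the FGF lists by its difference from the WT mean in KO replicate 1 (horizontal) and KO replicate 2 (vertical), on the log2(CPM + 0.5) scale, coloured by list with the number of genes in brackets; the vertical axis covers a wider range. Fgf1 lies at 0.73 and 0.72, and many genes near 0 in KO replicate 1, such as Frs2 at 0.01, are far from 0 in KO replicate 2.

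The genes whose pattern over the 4 libraries was nearest to that of Fgf1 were found by Euclidean distance in log2(CPM + 0.5), centred on each gene's mean, among 5436 protein-coding genes with a mean of 20 CPM or more. Shroom3, an actin-binding protein of epithelial shape change, was nearest at a distance of 0.091, with 278.5 and 276.8 CPM in KO and 182.1 and 173.9 CPM in WT. Ndufa12, Nudt21, Arpc4, Kdf1 and Psmc4 were also among the nearest, at distances of 0.192 to 0.204. These were selected for the pattern from 4 libraries, so no test is attached to their difference.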

How the data were processed

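RNA of GFP+ basal cells was sequenced in 2 KO and 2 WT libraries, made with PicoPure extraction and NuGEN and Illumina preparation, per the labels' protocols. The authors deposited whole-number read counts by Ensembl identifier for each library. TopHat2 (2.02), HTSeq and NCBIM37 (mm9) are named, per the submitters' processing notes. For the annotation release, strand setting and overlap rule, the entry is: not given in the sources used here. Library sizes and tests leave out the 5 summary lines per library, where reads outside features were 57.85% and 61.52% of all reads listed in KO and 61.4% and 57.59% in WT, and ambiguous reads at most 0.79%.

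Symbols, exon lengths and 3' UTRs came from GENCODE M21 (GRCm38), matched on gene identifiers (30082 rows, 86.9%), a later build than the counts, so lengths are approximate. Some genes of the lists had no row matched to them in the counts, so they could not be analysed. They were Fgf11, Fgf18, Grb2, Spry3, Spred2 and Etv4, and the markers Krt14, Krt19, Col1a1, Pecam1 and Cd68. Ligand shares, marker sums and list counts leave them out. The test was that of edgeR 4.0.16 under R 4.3.3 (filterByExpr, TMM, quasi-likelihood, genotype as the term, Benjamini-Hochberg over all tested genes, threshold 0.05), and the procedure was tested on simulated data. Each fold change is the log2 ratio of KO to WT. Alternatives used DESeq2 1.42.0, limma 3.58.1, other scalings and filters, a replicate block and leaving out each library. Descriptive log2 differences used a pseudocount of 0.5 CPM. The SDs and SEs include the spread between libraries. Floors (3 counts) cover counting error only, and reads carry no molecular identifiers.

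The members, the gene lists and the tests were chosen with earlier results of these data known. Beside the 8 members, the rule named called genes and the 4 genes of each list with the highest mean CPM per kilobase, plus the 8 genes most like Fgf1 (passing over predicted genes, Rik clones and pseudogenes); some genes this rule names are not reported here. Genes named outside it, which are Fgf4, Fgf6, Fgf10, Fgf12, Fgf20, Spry2, Cblb, Elf5, Kit, Cd74, Ptprc, Lyz2, Csf1r, Fabp4, Adipoq, Plin1, Dcn, Fbln1, Col1a2, Lum and Col3a1, and Etv1 and Sulf2, labelled in a plot, were chosen after their values were seen.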

Additional observations from a re-analysis of the deposited data

How the results depend on the processing

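Fgf1 was picked because both KO libraries lay above both WT libraries, so leaving out a library could not turn its direction. Its log2 fold change was 0.60 with total count scaling, 0.62 with upper quartile scaling, 0.68 at a mean CPM of 5 or more, and 0.72 to 0.74 over the libraries left out in turn. Total count scaling moved the median of all tested genes by -0.10 on the log2 scale. The count of 0 called genes stayed at 0 under every scaling, filter and voom setting. DESeq2 called 11 genes, and leaving out 1 library gave 0 to 5724. The 5724 calls came without KO replicate 1 (2036 higher and 3688 lower, 12.4% and 22.5% of genes tested), 5 came without either WT library, and 0 without KO replicate 2.

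Over the libraries left out, calls ran from 0 to 4 among ligands (Fgf1, picked for its difference, is 1 of the 4 and that call is no test of it), 0 to 2 among receptors, 0 to 13 among heparan sulfate genes, 0 to 8 in the relay and 0 to 5 among targets; all such calls came without KO replicate 1, when KO replicate 2 was the lone KO library, assumed to vary like the others. Among them were Frs2 and Fgf7. In that fit 9, 7, 26, 21 and 15 genes of these lists were tested, in the same order. The shares called over all genes in that fit are those given above.

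Sign changed, with none of these genes called when all libraries were used. Fgfr3 stood at -0.05 with total count scaling, -0.02 with upper quartile scaling, and -0.17 to 0.39 over the libraries left out; Fgfbp1 at 0.33 with voom and -8.53 to 8.41; Fgf2 at -0.13 to 0.82; Fgfr1 at -0.02 to 0.33; Frs2 at -2.04 to 0.01. The cause was not tested.

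The correlation of same-numbered deviations was 0.02. That value includes KO replicate 2, which correlated with the other libraries at 0.88 to 0.89 on the log2 scale. It therefore cannot settle whether the replicate numbers pair the libraries. With the replicate block 0 genes were called, 79 had an unadjusted p under 0.05, and Fgf1 stood at 0.73 ± 0.29. With matches to bases 2 to 7 of miR-205-5p in place of 2 to 8, 5 of the 8 genes held one, against 34.0% of all genes. That share was not matched for UTR length. The 3' UTRs of those 5 genes ran from 1508 to 5311 bases, against a median of 993 bases over all genes. Per kilobase of the longest transcript the order of the 8 genes was unchanged. Fgf7 and Fgfbp1 fell below the limit at a mean CPM of 5 or more. Zeros in KO replicate 2 limit what can be compared at low levels. They made up 24.13% of tested genes near the WT level of Fgf7, 8.9% near that of Fgf2 and 4.19% near that of Fgfr3.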
